A study of Homo sapiens with 7 samples.

Results

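Expression of hypoxia-inducible factors, of enzymes that control their stability and of genes known to be induced by low oxygen was compared in SKOV3 cells. SKOV3 is a human ovarian carcinoma line, and the clones compared were labelled scramble control, CtBP1 knockdown or CtBP2 knockdown. The set was defined as 34 named genes, and a gene counted as measured where a transcript cluster of the array was annotated with that gene alone. This held for 33 of the 34 genes, out of 17958 genes measured in all. ANKRD37 was left out because its cluster is annotated with several genes, and each of the 33 had a single cluster. The study holds 7 Affymetrix Human Gene 1.1 ST arrays in 3 groups: 2 arrays of scramble control clones, 3 of clones labelled CtBP1 knockdown and 2 of CtBP2 knockdown clones. All groups were made by stable lentiviral infection and kept in puromycin, including the controls. Each array is a clone, so a group rests on 2 or 3 clones of 1 cell line. The labels name no low-oxygen treatment for any group. Nothing in them says that the clones were cultured separately, so the p-values cover only array-to-array spread, part of which may be technical. The number of arrays limits the precision. In bulk RNA, fewer expressing cells and less RNA per cell cannot be told apart.

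In cells with oxygen, prolyl hydroxylases of the EGLN family mark the alpha subunits of hypoxia-inducible factor (HIF) for recognition by VHL and for destruction, and HIF1AN blocks their binding to coactivators. When oxygen falls, the alpha subunits HIF1A or EPAS1 (also called HIF-2 alpha) pair with ARNT and bind short DNA elements near genes for blood vessel growth, glycolysis, mitophagy and collagen modification. Control of the alpha subunits is largely at the protein level, which these arrays do not measure. CtBP1 and CtBP2 are related transcriptional co-repressors that bind NADH, a cofactor whose level depends on metabolism.

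The targeted genes were read first. For CTBP2 both CtBP2 knockdown arrays were the lowest, with log2 signals of 4.64 and 4.22 where the other 5 arrays had 5.70 to 6.31, and limma gave an adjusted p of 0.18 against scramble. For CTBP1 the clones labelled CtBP1 knockdown gave 5.11, 6.13 and 6.13, a range that overlapped the controls at 5.69 and 6.37, with an adjusted p of 0.849. Since that signal does not separate them from the controls, they are named below as the CtBP1-labelled arrays, and every direction drawn from them rests on the label. The labels say that knockdown was checked by western blot. Scramble control 1 stood apart: its correlations over all genes with the rest ran from 0.926 to 0.941, where the other 6 gave 0.971 to 0.993 among themselves. Its log2 values also had a narrower spread, with an interquartile range of 2.20 against 2.85 to 3.15 on the other 6. Its median over 16 genes of dividing cells was 4.44 against 6.67 to 7.11 elsewhere, and the part of this in the comparisons with scramble was not tested. Of 8 markers listed for SKOV3 the median was 6.12 to 7.65 by array. Among them WT1 was dim on every array (1.92 to 2.21), and MSLN lay at 3.55 to 5.37. The medians of the endothelial and fibroblast markers (7 and 6 measured) were 1.94 to 2.17 and 1.92 to 2.45, where the median of all genes was 3.25. The 5 leukocyte markers measured had medians of 1.74 to 2.04, with CD68 the brightest.

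Across the 33 genes the arrays fell into a pattern that no single gene carried past the test. On the CtBP2 knockdown arrays the median gene lay 0.26 and 0.17 above its mean over the 7 arrays. It lay 0.08, 0.25 and 0.07 below that mean on CtBP1-labelled arrays 1, 2 and 3, and 0.04 and 0.01 below it on the controls. The same medians over all genes ran from -0.02 to 0.01. The pooled standard deviation of these medians between arrays of a group was 0.072. The heat map of all 33 genes shows the CtBP2 knockdown columns as the warmest for the secreted factors ADM, STC2 and ANGPTL4 and the collagen enzymes P4HA1, P4HA2 and PLOD2. In those roles STC1, VEGFA, PLOD1, LOX and LOXL2 were highest on an array of another group. Scramble control 1 has single strong cells.

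**Figure D1:**
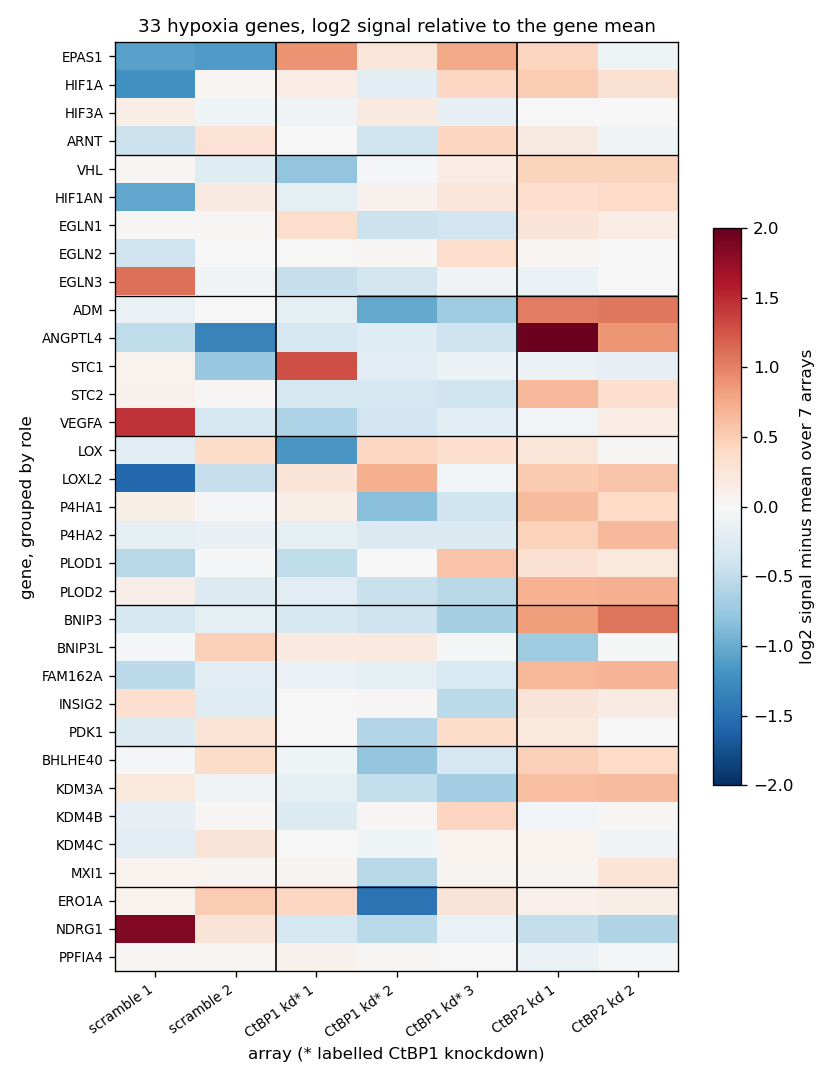
Heat map of 33 hypoxia genes (rows, grouped by role) on 7 arrays (columns), coloured by log2 signal minus the gene's mean over the 7 arrays; vertical lines divide scramble control, labelled CtBP1 knockdown and CtBP2 knockdown. The highest cells of scramble control 1 are NDRG1 (8.63), VEGFA (8.52) and EGLN3 (4.40, all log2 signals), and ADM, ANGPTL4, PLOD2 and BNIP3 are highest on the CtBP2 knockdown arrays.

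Among the HIF subunits, EPAS1 was the member that set the knockdowns apart from the controls. Its log2 signal was 4.73 and 4.68 on the scramble arrays, 6.72, 6.06 and 6.57 on the CtBP1-labelled arrays, and 6.25 and 5.72 on the CtBP2 knockdown arrays. Every knockdown array lay above both controls, and the controls agreed to within 0.05. The difference from scramble was 1.75 ± 0.25 on the log2 scale (SE of the limma fit, 3 arrays against 2) for the CtBP1-labelled arrays, a 3.36-fold higher signal. For the CtBP2 knockdown it was 1.28 ± 0.27 (2 arrays against 2), or 2.43-fold. Neither passed limma's test over all genes, at adjusted p of 0.734 and 0.291. Under the alternatives tried the adjusted p ran from 0.0332 to 0.989 for the CtBP1-labelled arrays, and it passed only without scramble control 2. For the CtBP2 knockdown it ran from 0.0645 to 0.93. Between the knockdowns EPAS1 differed by 0.47 ± 0.25 (adjusted p = 0.795).

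HIF1A, the alpha subunit present in most cell types, had signals of 8.27 and 9.52 on the controls, 9.63, 9.28 and 9.90 on the CtBP1-labelled arrays, and 9.99 and 9.79 on the CtBP2 knockdown arrays. The CtBP2 knockdown arrays lay above both controls, while the other knockdown group straddled scramble control 2. The difference from scramble was 0.71 ± 0.38 and 0.99 ± 0.42 for the CtBP1-labelled arrays and the CtBP2 knockdown (adjusted p = 0.734 and 0.498). The size depended on the control array: against scramble control 1 alone the differences were 1.33 and 1.62, and against scramble control 2 they were 0.08 and 0.37. HIF3A, a related alpha subunit with variants that can restrain HIF, stayed between 2.02 and 2.37 on all arrays. ARNT, the constitutive partner of the alpha subunits, lay between 6.09 and 6.95, with each group overlapping the others.

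The oxygen sensors and the degradation machinery gave smaller differences. VHL, which recognises hydroxylated alpha subunits for ubiquitination, had signals of 5.88 and 5.60 on the controls, 5.05, 5.80 and 5.997 on the CtBP1-labelled arrays, and 6.28 on each CtBP2 knockdown array. It was higher on the CtBP2 knockdown arrays than on every other array, by 0.54 ± 0.32 against scramble (adjusted p = 0.54) and the CtBP1-labelled arrays minus the CtBP2 knockdown arrays gave -0.66 ± 0.29 (adjusted p = 0.693). HIF1AN, the asparagine hydroxylase, was at 1.97 on scramble control 1 and between 2.81 and 3.39 on the other 6 arrays, with the CtBP2 knockdown arrays highest at 3.35 and 3.39. Of the prolyl hydroxylases, EGLN1 lay at 5.03 on both controls, with identical values, and between 4.59 and 5.37 on the knockdown arrays. EGLN2 was at 2.65 and 3.03 on the controls and between 3.04 and 3.40 on the knockdowns, without overlap but at differences of only 0.33 ± 0.17 and 0.22 ± 0.19 (adjusted p = 0.734 and 0.622). EGLN3, a prolyl hydroxylase that HIF itself induces, was at 4.40 on scramble control 1 against 3.23 on scramble control 2 and 2.84 to 3.29 on the knockdown arrays. The high EGLN3 value was thus that of 1 control array, and scramble control 2 overlapped both knockdown groups.

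**Figure D2:**
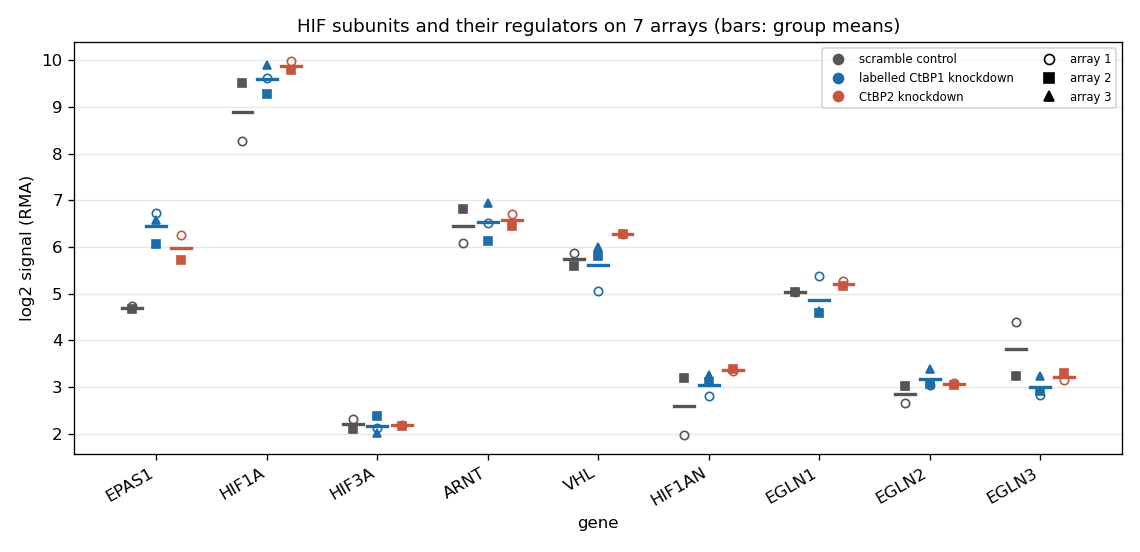
Log2 signals of the HIF subunits and their regulators on each of the 7 arrays; colours mark the groups, symbols the array number, and short bars the group means. EPAS1 is the gene whose knockdown arrays (5.72 to 6.72) all sit clearly above both controls (4.68 and 4.73), while HIF1A, HIF1AN and EGLN3 have 1 scramble array far from the other.

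The direct comparison of the knockdowns asks which genes differ between the CtBP1-labelled and the CtBP2 knockdown arrays, and it does not use the level of the control arrays. Its SE and p-values do use the spread between the control arrays, since limma pooled the spread over all 3 groups. Of the 33 genes, 10 were lower on the CtBP1-labelled arrays than on the CtBP2 knockdown arrays at an unadjusted p under 0.05, and 0 were higher. That is 30.3% of the genes on the lower side, where 5.31% of all 17958 genes tested were lower and 2.46% higher by the same rule. The 10 genes are BNIP3, P4HA2, ADM, STC2, PLOD2, FAM162A, KDM3A, ANGPTL4, BHLHE40 and P4HA1, and in each of them the groups did not overlap. Groups that did not overlap were seen for 14 genes on the lower side (42.4%) and 1 on the higher side, against 15.8% and 16.2% of all genes. No gene of the 33 passed the adjusted threshold of 0.05, and limma called 0 of 17958 genes (0%) in this comparison. At an unadjusted p under 0.05 it gave 1395 genes, 441 higher and 954 lower. The median difference over the 33 genes was -0.32, against 0.01 over all genes. The count of 10 was 11 without either scramble array, or with only the knockdown groups fitted, where 9.28% of all genes were lower and 4.93% higher. It was 8 without CtBP2 knockdown array 1 or 2, where 2.86% and 3.18% of all genes were lower. After renewed quantile normalization 9 members were lower and 1 higher, against 4.94% and 4.18% of all genes. The background leaned less to the lower side in that fit.

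BNIP3, an outer mitochondrial membrane protein that recruits the autophagy machinery to mitochondria, had the smallest p of the set. Its log2 signals were 7.08 and 7.21 on the controls, 7.08, 6.98 and 6.73 on the CtBP1-labelled arrays, and 8.24 and 8.46 on the CtBP2 knockdown arrays. The CtBP2 knockdown arrays stood above the other 5 by 1 log2 unit or more. The difference was -1.42 ± 0.15 between the knockdowns (2.67-fold, adjusted p = 0.129) and 1.20 ± 0.17 for the CtBP2 knockdown against scramble (2.30-fold, adjusted p = 0.18). FAM162A, a mitochondrial protein linked to hypoxic cell death, was also highest on the CtBP2 knockdown arrays, at 3.27 and 3.56 on the controls, then 3.68, 3.60 and 3.49 on the CtBP1-labelled arrays, then 4.45 and 4.48. Its differences were -0.87 ± 0.13 between the knockdowns and 1.05 ± 0.15 against scramble (adjusted p = 0.202 and 0.18). BNIP3L, the close relative of BNIP3, had another order, with signals of 8.62 and 9.14 on the controls, 8.86, 8.86 and 8.62 on the CtBP1-labelled arrays, and 7.95 and 8.62 on the CtBP2 knockdown arrays. It differed by 0.49 ± 0.25 between the knockdowns, with the groups overlapping.

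Genes of collagen modification were divided by enzyme. PLOD2, a lysyl hydroxylase that prepares collagen for cross-linking, was at 5.87 and 5.48 on the controls, 5.53, 5.32 and 5.20 on the CtBP1-labelled arrays, and 6.46 and 6.48 on the CtBP2 knockdown arrays. The CtBP2 knockdown arrays were the highest, and the other groups overlapped. PLOD2 differed by -1.11 ± 0.17 between the knockdowns (adjusted p = 0.202). P4HA2, a catalytic subunit of collagen prolyl 4-hydroxylase, was at 4.76 and 4.79, then 4.75, 4.65 and 4.65, then 5.40 and 5.58, a difference of -0.81 ± 0.11 between the knockdowns (adjusted p = 0.185). Its paralogue P4HA1 was at 5.91 and 5.76, then 5.94, 4.96 and 5.40, then 6.44 and 6.19, so it too was highest on the CtBP2 knockdown arrays, with a wider spread. PLOD1, the other lysyl hydroxylase measured, overlapped between the knockdowns (6.38 to 7.46 and 7.10 to 7.19), with the controls at 6.34 and 6.86. LOXL2, a lysyl oxidase that cross-links collagen, went with neither: it was at 5.16 and 6.27 on the controls, 6.99, 7.44 and 6.68 on the CtBP1-labelled arrays, and 7.26 and 7.31 on the CtBP2 knockdown arrays. All 5 knockdown arrays exceeded both controls, by 1.32 ± 0.37 and 1.57 ± 0.40 in the mean (adjusted p = 0.734 and 0.357). Its relative LOX overlapped in every comparison, with CtBP1-labelled array 1 lowest at 2.95 and the other 6 arrays between 3.91 and 4.53.

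The secreted factors were also divided. ADM, the vasodilator peptide adrenomedullin, was at 4.70 and 4.83 on the controls, 4.65, 3.80 and 4.12 on the CtBP1-labelled arrays, and 5.86 and 5.88 on the CtBP2 knockdown arrays. The knockdown groups lay on opposite sides of the controls, 3.20-fold apart (-1.68 ± 0.25, adjusted p = 0.202). STC2, a secreted glycoprotein of the stanniocalcin family, was at 2.52 and 2.45, then 2.08, 2.07 and 2.02, then 3.07 and 2.77. It too split around the controls, at -0.86 ± 0.13 between the knockdowns (adjusted p = 0.202). STC2 was dim, and its CtBP1-labelled values lay below the 25th percentile of all genes (2.12). ANGPTL4, an inhibitor of lipoprotein lipase, was at 3.55 and 2.72, then 3.72, 3.80 and 3.64, then 6.01 and 4.94. Every knockdown array exceeded both controls, and between the knockdowns the difference was -1.75 ± 0.37, a 3.37-fold higher signal with CtBP2 knockdown (adjusted p = 0.291). STC1, the relative of STC2, was highest on CtBP1-labelled array 1 at 6.51 and lay between 4.47 and 5.30 on the other 6. VEGFA, the main angiogenic growth factor that HIF induces, was at 8.52 on scramble control 1, 6.74 on scramble control 2, 6.46, 6.71 and 6.88 on the CtBP1-labelled arrays, and 7.03 and 7.24 on the CtBP2 knockdown arrays. Its knockdown groups did not overlap, but their difference of -0.45 ± 0.49 was within its error. That error pools the spread of all groups. The standard deviation was 1.26 in the controls, against 0.21 in the CtBP1-labelled and 0.15 in the CtBP2 knockdown arrays.

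**Figure D3:**
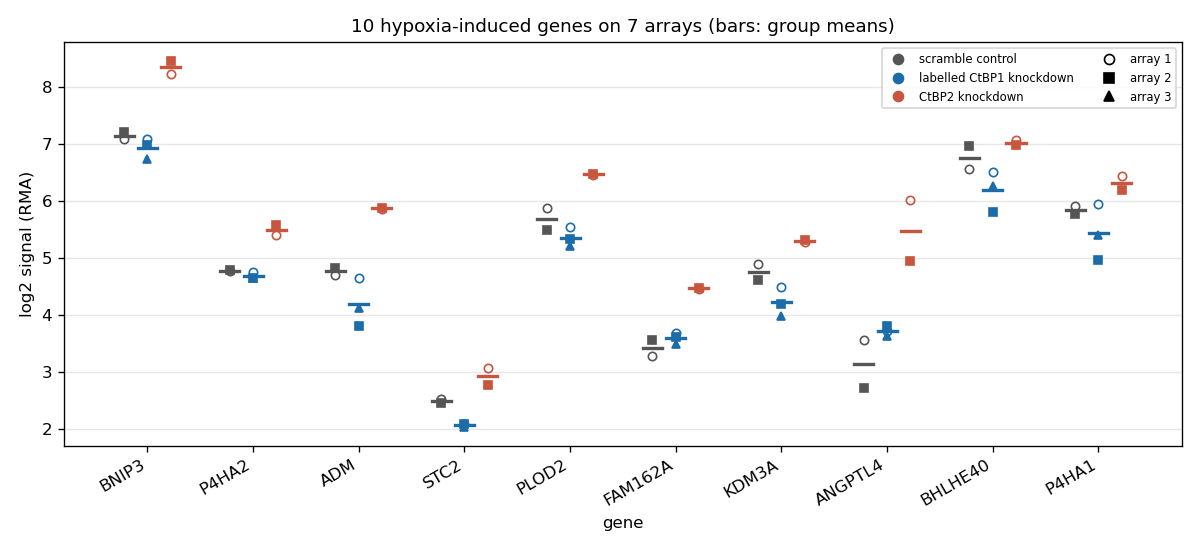
Log2 signals on each of the 7 arrays of the 10 genes with an unadjusted p under 0.05 between the knockdowns; colours mark the groups, symbols the array number, and short bars the group means. In all 10 the CtBP2 knockdown arrays lie above the CtBP1-labelled arrays and above both controls. The gap to the controls is wide for ANGPTL4 (6.01 and 4.94 against 3.55 and 2.72) and narrow for BHLHE40 (7.06 and 6.98 against 6.55 and 6.96).

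To show what the 6 genes with the smallest p between the knockdowns carry next to their start sites, the 250 bases upstream of each RefSeq gene start (GRCh38.p14) were searched for the core of the HIF-binding element, ACGTG or GCGTG, on both strands. Matches are in capitals, 5′ to 3′ on the gene's strand, and CACGT and CACGC are the cores read on the other strand. The windows are BNIP3 at chr10:131981924-131982173 (minus strand), FAM162A at chr3:122383932-122384181 (plus), PLOD2 at chr3:146161185-146161434 (minus), STC2 at chr5:173328415-173328664 (minus), ADM at chr11:10304823-10305072 (plus) and P4HA2 at chr5:132227092-132227341 (minus).
BNIP3: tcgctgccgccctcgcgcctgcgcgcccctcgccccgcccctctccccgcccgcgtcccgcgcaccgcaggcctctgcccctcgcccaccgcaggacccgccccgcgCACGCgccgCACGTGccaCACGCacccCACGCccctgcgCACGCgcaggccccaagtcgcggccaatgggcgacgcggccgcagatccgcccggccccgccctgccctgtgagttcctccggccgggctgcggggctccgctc
FAM162A: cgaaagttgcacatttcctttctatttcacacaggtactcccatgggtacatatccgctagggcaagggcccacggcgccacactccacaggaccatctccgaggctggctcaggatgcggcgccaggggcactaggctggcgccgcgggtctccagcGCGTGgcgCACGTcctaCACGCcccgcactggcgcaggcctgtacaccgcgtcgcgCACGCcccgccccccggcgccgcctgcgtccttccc
PLOD2: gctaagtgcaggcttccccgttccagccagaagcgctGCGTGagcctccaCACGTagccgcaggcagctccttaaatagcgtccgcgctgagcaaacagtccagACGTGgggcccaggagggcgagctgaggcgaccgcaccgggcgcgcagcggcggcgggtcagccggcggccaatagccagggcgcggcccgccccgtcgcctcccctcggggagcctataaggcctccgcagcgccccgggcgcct
STC2: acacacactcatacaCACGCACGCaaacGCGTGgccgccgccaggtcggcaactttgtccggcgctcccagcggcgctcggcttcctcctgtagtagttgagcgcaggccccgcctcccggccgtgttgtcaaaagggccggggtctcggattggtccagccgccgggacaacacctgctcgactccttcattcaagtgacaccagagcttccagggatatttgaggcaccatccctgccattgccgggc
ADM: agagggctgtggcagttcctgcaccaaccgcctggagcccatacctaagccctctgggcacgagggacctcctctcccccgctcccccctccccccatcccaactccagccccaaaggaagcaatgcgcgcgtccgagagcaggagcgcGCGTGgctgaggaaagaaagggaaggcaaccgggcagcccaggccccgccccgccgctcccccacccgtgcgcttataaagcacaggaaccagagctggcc
P4HA2: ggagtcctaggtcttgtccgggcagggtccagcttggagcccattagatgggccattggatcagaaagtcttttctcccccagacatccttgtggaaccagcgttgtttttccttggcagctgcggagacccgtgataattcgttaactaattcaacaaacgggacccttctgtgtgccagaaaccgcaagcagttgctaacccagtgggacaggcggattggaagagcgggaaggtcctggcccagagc

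The BNIP3 window held 6 matches between 143 and 104 bases before the start, 2 of them overlapping in a CACGTG. FAM162A held 4, PLOD2 3, STC2 3 and ADM 1, while no match was found in the P4HA2 window. Of the 34 genes, 28 had an entry in the promoter table, with 39 windows, and 29 windows (74.4%) held at least 1 core, against 43.2% of all 35116 windows. For 3 or more cores the shares were 28.2% and 7.76%. The windows of the set were richer in G and C (median 68.0% against 58.0%), and these short letters contain C and G. A match is a description of the sequence and not of binding. VHL, VEGFA, STC1, NDRG1, BNIP3L and LOXL2 had no entry.

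Among chromatin and transcription genes, KDM3A, a histone H3 lysine 9 demethylase that HIF induces, was at 4.90 and 4.61 on the controls, 4.49, 4.19 and 3.98 on the CtBP1-labelled arrays, and 5.28 and 5.31 on the CtBP2 knockdown arrays. The knockdown groups lay on opposite sides of the controls and differed by -1.07 ± 0.18 (2.10-fold, adjusted p = 0.225). BHLHE40, a basic helix-loop-helix repressor, was at 6.55 and 6.96, then 6.51, 5.80 and 6.25, then 7.06 and 6.98. It had the same order with narrow gaps, at -0.83 ± 0.24 between the knockdowns (adjusted p = 0.465). The demethylases KDM4B and KDM4C stayed within 3.71 to 4.40 and 3.18 to 3.66 and overlapped in all comparisons, as did MXI1, a MYC antagonist, of which 4 arrays had an identical value of 4.88. Of the remaining genes, PDK1, the kinase that keeps pyruvate out of the mitochondria, lay between 4.69 and 5.63 with overlapping groups. ERO1A, an oxidase of the endoplasmic reticulum, was between 6.92 and 7.34 except on CtBP1-labelled array 2 (5.37). INSIG2, a brake on cholesterol synthesis, was higher on the CtBP2 knockdown arrays (3.50 and 3.41) than on the CtBP1-labelled arrays (2.70 to 3.25), a difference of -0.39 ± 0.24 between the knockdowns, and overlapped the controls. PPFIA4 lay at 1.96 to 2.16, near the 25th percentile of all genes (2.12).

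**Figure D4:**
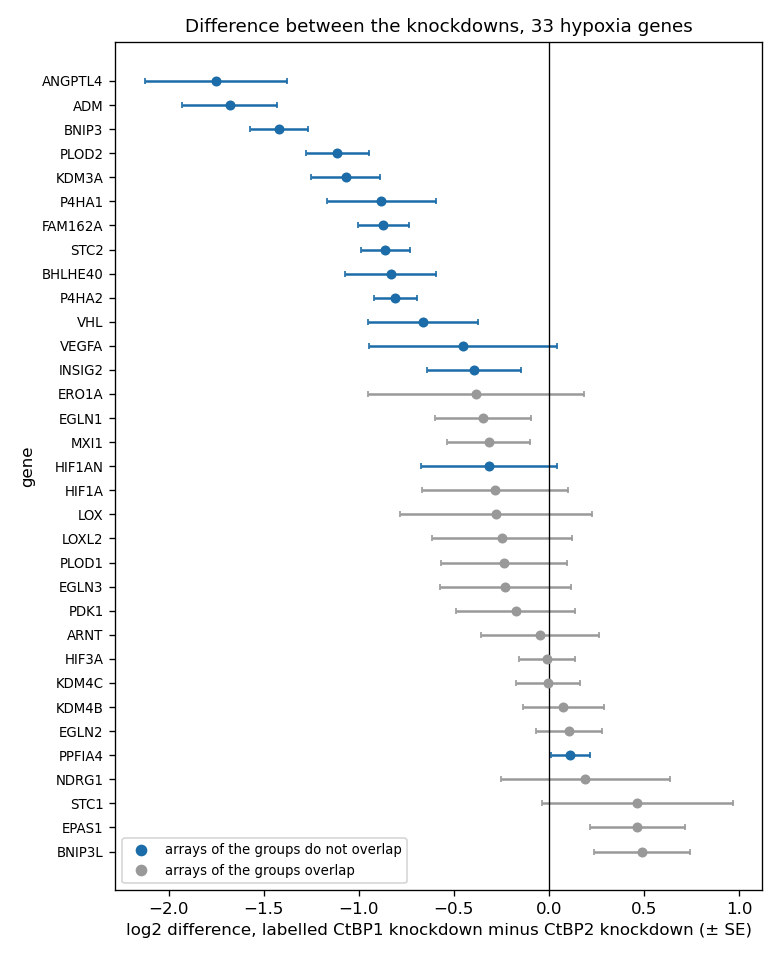
Log2 difference between the CtBP1-labelled arrays and the CtBP2 knockdown arrays for each of 33 hypoxia genes, ordered by size, with bars of ± 1 SE of the limma fit; blue marks genes whose 2 groups of arrays do not overlap. The 10 genes with the lowest values run from -1.75 (ANGPTL4) to -0.81 (P4HA2), and no gene passes the adjusted threshold.

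Against the scramble control, which asks what differs in each labelled group, the CtBP2 knockdown gave most of its differences on the higher side. Of the 33 genes, 10 (30.3%) were higher at an unadjusted p under 0.05, against 7.19% of all genes, and 1 was lower, against 2.98%. The 10 were BNIP3, FAM162A, P4HA2, ANGPTL4, EPAS1, PLOD2, ADM, LOXL2, STC2 and KDM3A. All CtBP2 knockdown arrays lay above both controls for 18 genes (54.5%), against 19.3% of all genes, and below them for 2, against 21.7%. The largest difference was that of ANGPTL4, at 2.34 ± 0.41 (5.05-fold, adjusted p = 0.239). None of the 33 passed the adjusted threshold, which 0.00557% of all genes (1 of 17958) did. That count ran from 0 to 3952 genes when single arrays were left out, with 3952 without scramble control 2. The median over the 33 was 0.22, against -0.02 over all genes. The count of 10 was the same without scramble control 1, where 5.07% of all genes were higher, and without scramble control 2, where 22.2% were. After renewed quantile normalization 8 members were higher and 2 lower, against 5.73% and 5.09% of all genes. With only these groups fitted 11 were higher and 0 lower, against 4.66% and 1.54%. The count of 1 lower gene was 2 and 3 without scramble control 1 and 2, where 5.3% and 17.5% of all genes were lower, and 0 without CtBP2 knockdown array 1 (0.936% of all genes).

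For the CtBP1-labelled arrays against scramble the same count was 2 higher and 3 lower, against 2.87% and 1.92% of all genes. The higher genes were EPAS1 and LOXL2, and the lower ones STC2 (-0.42 ± 0.13), NDRG1 and KDM3A (-0.53 ± 0.18). Groups did not overlap for 4 genes on the higher side and 6 on the lower side, against 6.76% and 7.59% of all genes. Limma called 0 of the 33 and 0 of 17958 genes (0%) here, with 861 genes at an unadjusted p under 0.05, and the median over the 33 was -0.10. The count of 3 lower genes was 6 without scramble control 2, where 16.2% of all genes were lower, and 3 without scramble control 1 (5.42%). It was 6 without CtBP1-labelled array 1, 1 without array 2 and 2 without array 3, against 1.49%, 1.47% and 1.34% of all genes. It was 2 without either CtBP2 knockdown array, against 1.18%. The count of 2 higher genes was 1 without scramble control 1 and 6 without scramble control 2, against 2.26% and 20.1% of all genes. After renewed quantile normalization 2 members were higher and 5 lower, against 3.56% and 4.04%, and with only these groups fitted 2 were higher and 2 lower, against 1.82% and 1.18%. Both comparisons share the 2 scramble arrays.

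NDRG1, a stress-responsive gene strongly induced by hypoxia, was the member below both controls on all 5 knockdown arrays. Its signals were 8.63 and 7.04 on the controls, 6.44, 6.24 and 6.65 on the CtBP1-labelled arrays, and 6.31 and 6.19 on the CtBP2 knockdown arrays. The differences were -1.40 ± 0.44 and -1.59 ± 0.49 (adjusted p = 0.734 and 0.411). Against scramble control 1 alone they were -2.19 and -2.38, and against scramble control 2 alone -0.60 and -0.79. NDRG1, VEGFA and EGLN3 were each higher on scramble control 1 than on scramble control 2, by 1.59, 1.78 and 1.18, while HIF1A, HIF1AN and LOXL2 were lower there, at -1.25, -1.22 and -1.11. The sign of the difference from scramble was the same against each control array for 24 of 33 genes on the CtBP1-labelled arrays and for 23 of 33 on the CtBP2 knockdown arrays. With scramble control 2 left out, so that the control is a single array assumed to vary like the other groups, 7 members passed the adjusted threshold for the CtBP1-labelled arrays and 10 for the CtBP2 knockdown, among 3262 and 3952 genes that did.

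**Figure D5:**
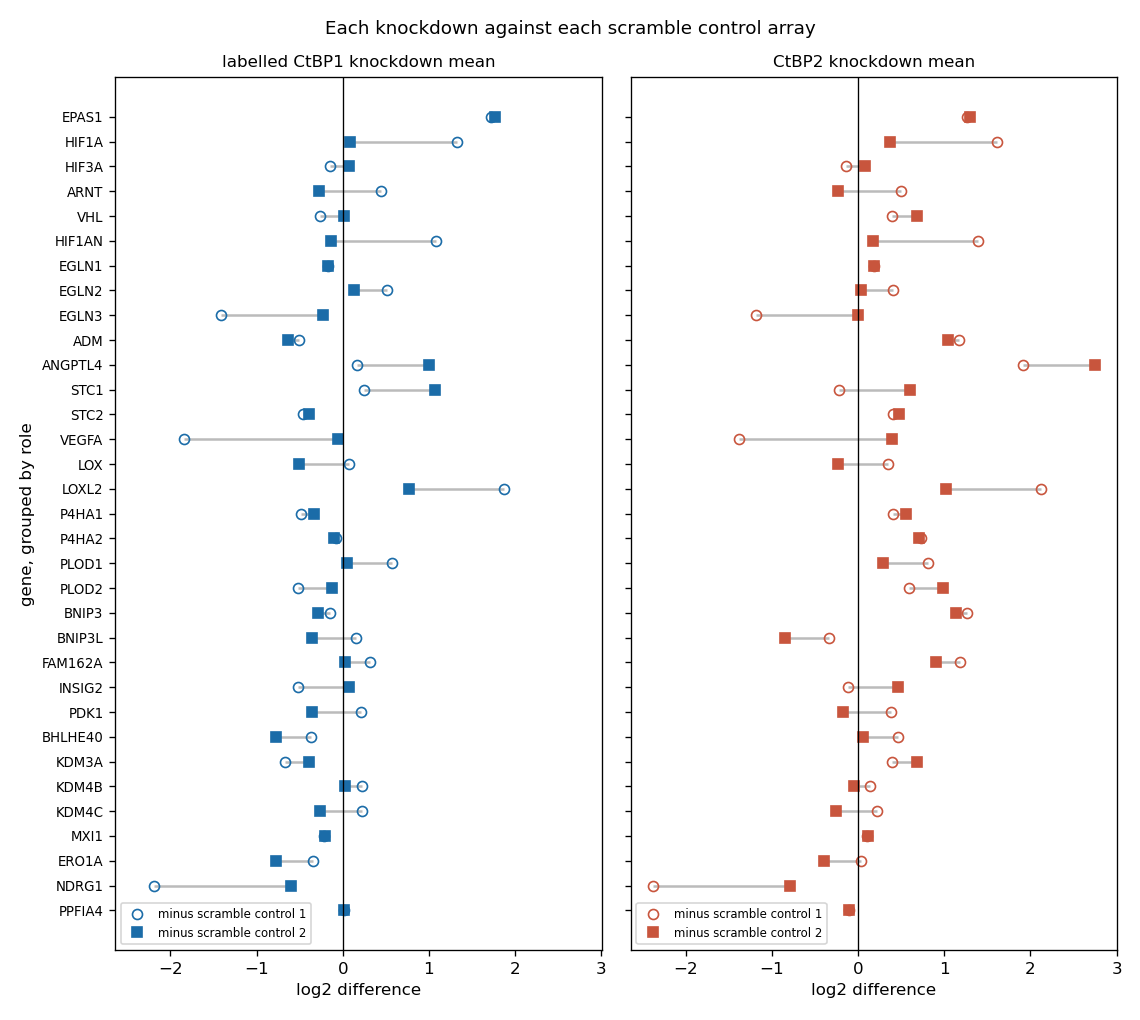
Mean of the CtBP1-labelled arrays (left) and of the CtBP2 knockdown arrays (right) minus scramble control 1 (open circles) and minus scramble control 2 (filled squares), as log2 differences for 33 hypoxia genes grouped by role. EPAS1 (1.73 and 1.77 on the left) gives nearly the same value against each control, as do ADM, BNIP3 and P4HA2, while VEGFA, NDRG1, HIF1A, HIF1AN and EGLN3 depend on which control is used.

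Joined to each other, the comparisons gave 3 patterns. All 5 knockdown arrays exceeded both controls for EPAS1, EGLN2, ANGPTL4 and LOXL2, or 4 of 33 genes, where 3.98% of all genes did, and lay below both for NDRG1, where 4.97% did. The knockdowns lay on opposite sides of both controls, with CtBP2 knockdown above, for 5 genes (ADM, STC2, KDM3A, P4HA2 and BHLHE40), where 0.44% of all genes did. The opposite arrangement was seen for 0 of the 33 genes and for 0.329% of all genes. For P4HA2 the gap on the lower side was small, since the highest CtBP1-labelled array was at 4.75 and the lower control at 4.76.

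Other genes of the pathway were read from lists that the set does not contain. Of 16 genes for HIF cofactors and degradation, 15 were measured, and 0 had an unadjusted p under 0.05 against scramble in either knockdown. Of all genes, 2.87% were higher and 1.92% lower at that p on the CtBP1-labelled arrays, and 7.19% and 2.98% with CtBP2 knockdown. Between the knockdowns CITED2, which competes with HIF for the coactivators CBP and p300, was the 1 gene of that list past that p. Its signals were 5.31 and 7.43 on the controls, 7.45, 6.97 and 7.48 on the CtBP1-labelled arrays, and 5.52 and 5.74 on the CtBP2 knockdown arrays. It was higher on the CtBP1-labelled arrays by 1.67 ± 0.59 (adjusted p = 0.554). That is 6.67% of the 15 genes on the higher side, against 2.46% of all genes. Without either scramble array 4 genes of this list were also lower at that p, against 9.28% of all genes. Without scramble control 2, 5 and 6 of the 15 genes were higher than scramble on the CtBP1-labelled and CtBP2 knockdown arrays, where 20.1% and 22.2% of all genes were. The chaperone HSP90AB1 differed by 0.81 ± 0.34 between the CtBP2 knockdown and scramble (adjusted p = 0.5).

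Of 35 further hypoxia-induced genes 31 were measured. Between the knockdowns 6 were lower and 1 higher on the CtBP1-labelled arrays at an unadjusted p under 0.05, with a median difference of -0.13. These are 19.4% and 3.23% of the list, against 5.31% and 2.46% of all genes. The lower ones included VLDLR, a lipoprotein receptor (-0.62 ± 0.13), PFKFB3 (-0.58 ± 0.14), ANKRD9 (-0.58 ± 0.16) and HMOX1, heme oxygenase (-0.70 ± 0.20), and the higher one was EGR1, an immediate-early transcription factor (2.92 ± 0.82), at adjusted p of 0.291 to 0.465. Against scramble, the CtBP2 knockdown had 6 higher and 4 lower genes, among them PFKFB3, which makes an activator of glycolysis (1.43 ± 0.16), MIF (1.58 ± 0.55), EDN1, the vasoconstrictor endothelin-1 (1.72 ± 0.60), and PNRC1 (-0.74 ± 0.16). These counts are 19.4% and 12.9% of the list, against 7.19% and 2.98% of all genes. The CtBP1-labelled arrays had 1 higher gene, PFKFB3 (0.85 ± 0.14), and 4 lower ones: DDIT4, an inhibitor of mTORC1 (-0.82 ± 0.16), PNRC1 (-0.52 ± 0.15), CCNG2 (-0.73 ± 0.27) and CXCR4 (-1.26 ± 0.49). Their adjusted p by limma was 0.734. The counts of higher and lower genes are 3.23% and 12.9% of the list, against 2.87% and 1.92% of all genes. Without scramble control 1 the CtBP2 knockdown counts were 2 higher and 5 lower, against 5.07% and 5.3% of all genes. Without scramble control 2 the counts of the CtBP1-labelled arrays were 5 higher and 8 lower, against 20.1% and 16.2% of all genes.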

How the data were processed

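Each array has 1 deposited log2 value per transcript cluster, made by the authors; the submitters' processing notes name RMA and Affymetrix Expression Console. Versions and genome build are not given in the sources used here. RMA gives arrays a like distribution of probe intensities and compresses differences of dim genes. The gene values of scramble control 1 still had a narrower interquartile range, 2.20 against 2.85 to 3.15 on the other arrays. What part this had in the comparisons with scramble was not tested. The labels name a column kit and the design text TRIzol for RNA. Clusters annotated with 1 gene symbol were used (19181 of 33297), symbols were updated through Entrez identifiers, and the brightest cluster stood for a gene. No dim gene was removed. Limma 3.58.1 (R 4.3.3) fitted 3 group means to all 7 arrays, with 4 residual degrees of freedom, two-sided p-values and Benjamini-Hochberg adjustment over 17958 genes per comparison, at 0.05; it was tested on simulated data. Errors after ± are SE of the fit. The members, lists, roles and tests were chosen with earlier results of these data known. Per-array values were named for the factors and regulators and for the 6 other members with the smallest p per comparison; up to 5 genes were named per further list, and other members and genes were named after their values were seen. Alternatives were renewed quantile normalization, median centring, a filter on dim genes, the mean over clusters, a trended robust fit, fits of only the groups compared, a block on replicate number, and fits without 1 array at a time. Of the values, 9 members had an identical signal on at least 2 arrays, which for 2 of them fell within a group and can understate the spread. Promoter sequences are from RefSeq (GRCh38.p14); protein sequences were not used here. Figures were drawn with matplotlib 3.10.9.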

Additional observations from a re-analysis of the deposited data

Results flagged for a closer look

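For 5 genes every array labelled CtBP1 knockdown lay below both scramble arrays while every CtBP2 knockdown array lay above them. For P4HA2 the CtBP1-labelled arrays differed from scramble by only -0.09 ± 0.11, and the CtBP2 knockdown by 0.72 ± 0.12. The gaps of BHLHE40 were narrow. Its lowest CtBP2 knockdown array was at 6.98 against 6.96 on the higher control. Its highest CtBP1-labelled array was at 6.51 against 6.55 on the lower control. The difference between the knockdowns was -1.68 for ADM, -0.86 for STC2, -1.07 for KDM3A, -0.81 for P4HA2 and -0.83 for BHLHE40 on the log2 scale. The direct comparison tests this difference, and by limma the adjusted p was 0.202, 0.202, 0.225, 0.185 and 0.465. Under all alternatives tried these differences kept their sign. For fits without 1 array or of only the groups compared, the sign was fixed by how the 5 genes were picked. It is therefore no separate evidence there. The lowest adjusted p by limma over the 5 genes and the alternatives was 0.0873. CTBP1 signal does not separate the arrays labelled CtBP1 knockdown from the controls, so the direction rests on those labels.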

How the results depend on the processing

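Under 14 alternative settings, 64 of 99 member differences (33 genes in 3 comparisons) kept their sign, among them all those of EPAS1, HIF1A, EGLN3, BNIP3, FAM162A, ADM, STC2, KDM3A, P4HA1, P4HA2, PLOD2, ANGPTL4, BHLHE40, LOXL2 and NDRG1. Several settings cannot change a member difference. These are the dim-gene filter, the mean over clusters, the trended robust fit, and the fit of only the groups compared. Leaving out an array of the group not compared cannot change it either. Nor can the block on replicate number for CtBP2 against scramble. Between the knockdowns, the fits without either scramble array and of only the groups compared are the same fit. CtBP1 and CtBP2 stand here for the arrays so labelled, and where a value turned or moved the cause was not tested. Renewed quantile normalization called 7 genes (0 members) for CtBP1 against CtBP2, where the limma fit otherwise called 0, and split the genes at an unadjusted p under 0.05 into 640 higher and 725 lower for CtBP1 against scramble (516 and 345 without it), 1029 and 914 for CtBP2 against scramble (1291 and 536), and 751 and 888 for CtBP1 against CtBP2 (441 and 954). It moved the member medians to -0.33, 0.12 and -0.23, the lower members against scramble to 5 and 2, and the higher members between the knockdowns to 1. It turned HIF3A (0.077), ARNT (-0.094), KDM4B (-0.049) for CtBP1 against scramble, then HIF3A (0.12), ARNT (-0.15), EGLN1 (-0.17), STC1 (-0.17), KDM4B (-0.19), LOX (-0.20), PDK1 (-0.23), INSIG2 (-0.023), MXI1 (-0.25), PPFIA4 (0.046) for CtBP2 against scramble, then ARNT (0.057), KDM4C (0.022) for CtBP1 against CtBP2. Median centring gave 6 lower members for CtBP1 against scramble and turned PPFIA4 (-0.027) for CtBP1 against scramble, then KDM4B (-0.0076), LOX (-0.0009) for CtBP2 against scramble, then HIF3A (0.011), KDM4C (0.017) for CtBP1 against CtBP2. Fits of only the groups compared called 0 genes, and had 0 lower members, for CtBP2 against scramble. PPFIA4 had no value with dim genes left out.

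The labels number the clones. Same-numbered arrays correlated at -0.354 to 0.098 in their deviations from the group means. In a group of 2 arrays these deviations mirror each other. The correlations therefore cannot tell whether same-numbered arrays share more than a number. With the replicate number as a block, 0 genes passed for CtBP2 against scramble, 1 member was lower for CtBP1 against scramble, and the median between the knockdowns was -0.42. The block turned HIF3A (0.038), ARNT (-0.12), KDM4B (-0.057) for CtBP1 against scramble, then HIF3A (0.066), EGLN2 (-0.0096), KDM4B (-0.11) for CtBP1 against CtBP2. Only the CtBP1-labelled group has an array numbered 3. The block therefore gives the same member differences as the fit without CtBP1-labelled array 3, and is no separate check of their sign.

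Leaving out 1 array at a time, CtBP1 against scramble had 0 to 3262 genes and 0 to 7 members past the threshold, 1 to 6 members higher and 1 to 6 lower, and a median of -0.14 to -0.029. CtBP2 against scramble had 0 to 3952 genes and 0 to 10 members past it, 0 to 3 lower members and a median of 0.22 to 0.40. CtBP1 against CtBP2 had 0 to 1 higher members and a median of -0.42 to -0.23. For CtBP1 against scramble the sign turned in ARNT (-0.28 to 0.45), BNIP3L (-0.36 to 0.16), ERO1A (-0.90 to 0.041), HIF1AN (-0.14 to 1.08), HIF3A (-0.15 to 0.070), INSIG2 (-0.52 to 0.068), KDM4B (-0.057 to 0.29), KDM4C (-0.26 to 0.22), LOX (-0.51 to 0.29), PDK1 (-0.35 to 0.21), PPFIA4 (-0.012 to 0.027), VHL (-0.31 to 0.16). For CtBP2 against scramble the sign turned in ARNT (-0.23 to 0.49), ERO1A (-0.39 to 0.038), HIF3A (-0.14 to 0.080), INSIG2 (-0.12 to 0.46), KDM4B (-0.044 to 0.14), KDM4C (-0.26 to 0.22), LOX (-0.23 to 0.35), MXI1 (-0.0051 to 0.22), PDK1 (-0.18 to 0.39), STC1 (-0.22 to 0.61), VEGFA (-1.39 to 0.39). For CtBP1 against CtBP2 the sign turned in ARNT (-0.26 to 0.16), EGLN2 (-0.0096 to 0.17), ERO1A (-0.73 to 0.22), HIF3A (-0.11 to 0.066), KDM4B (-0.11 to 0.24), KDM4C (-0.076 to 0.068), LOX (-0.55 to 0.24), PDK1 (-0.39 to 0.079), PLOD1 (-0.51 to 0.028), STC1 (-0.017 to 0.73).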
